A study of Mus musculus with 24 samples.

Results

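The genes described here encode enzymes that make NADPH in the cytosol or recycle pentose phosphates. Their transcripts were measured in Ku70-/- mouse embryonic fibroblasts exposed to potassium bromate (KBrO3), to bisphenol A (BPA) or to both. The set of 9 genes was named by known function, and a probe was taken for a gene when the gene symbol printed in the scanner output was that of the gene or an older synonym, such as Mod1 for Me1. Of the 9 genes, 8 had such a probe, with 15 probes in all, out of 18754 protein-coding genes and 41174 probes on the array. The ninth, Rpia, had none under that rule. The rule itself uses no measured value, but the 9 genes were chosen with earlier results of these data known.

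The cells were a fibroblast line that lacked Ku70 (Xrcc6), a subunit of the Ku heterodimer needed for end joining of DNA double-strand breaks. The controls carried the deletion too, and no cells with Ku70 were analysed here. The first set of 15 arrays held untreated controls, cells given KBrO3 alone (20 mM for 1 hr, then 3 or 23 hr of repair in fresh medium) and co-exposed cells (150 µM BPA for 1 hr, both agents for 1 hr, then BPA for 3 or 23 hr), sampled at 4 and 24 hr. The second set of 9 arrays held its own untreated controls and cells kept in 150 µM BPA alone for 4 or 24 hr by the labels, which the methods of the study put 1 hr longer. Each of the 8 groups held 3 arrays, each with RNA of 1 biological replicate. The first controls are labelled 4 hr and the second carry no time, so at 24 hr treatment and time in culture cannot be told apart.

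NADPH is the reductant with which cells regenerate glutathione and thioredoxin, and KBrO3 is an oxidant that damages DNA, mainly by forming 8-oxoguanine. The oxidative branch of the pentose phosphate pathway yields NADPH at 2 steps, catalyzed by glucose-6-phosphate dehydrogenase (G6pdx) and 6-phosphogluconate dehydrogenase (Pgd), with 6-phosphogluconolactonase (Pgls) between them. The non-oxidative branch returns pentose phosphates to glycolysis through ribose-5-phosphate isomerase (Rpia), ribulose-5-phosphate epimerase (Rpe), transketolase (Tkt) and transaldolase (Taldo1). Malic enzyme (Me1) and the NADP-dependent isocitrate dehydrogenase (Idh1) supply cytosolic NADPH outside the pathway, and G6pdx, Pgd, Tkt, Taldo1 and Me1 are known targets of the transcription factor NRF2.

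Because these genes are known for regulation through antioxidant response elements, the stretch from 250 bases before to 10 bases after the first annotated start site is printed for the gene with the largest rise (Pgd), the gene with the largest fall (Idh1) and both genes with a match at their first start site (G6pdx and Me1). The sequences are from RefSeq, build GRCm38.p6, and lie at chr4:149166696-149166955 for Pgd, chr1:65186470-65186729 for Idh1, chrX:74428871-74429130 for G6pdx and chr9:86695905-86696164 for Me1, all on the minus strand. They are written 5′ to 3′ on the strand of the gene, and capitals mark a match to TGACNNNGC on either strand.
Pgd: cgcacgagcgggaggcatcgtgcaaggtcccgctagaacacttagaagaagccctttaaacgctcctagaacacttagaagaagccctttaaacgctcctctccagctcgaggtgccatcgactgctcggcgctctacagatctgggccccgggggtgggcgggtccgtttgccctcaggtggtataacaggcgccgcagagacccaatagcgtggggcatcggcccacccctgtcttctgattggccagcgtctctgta
Idh1: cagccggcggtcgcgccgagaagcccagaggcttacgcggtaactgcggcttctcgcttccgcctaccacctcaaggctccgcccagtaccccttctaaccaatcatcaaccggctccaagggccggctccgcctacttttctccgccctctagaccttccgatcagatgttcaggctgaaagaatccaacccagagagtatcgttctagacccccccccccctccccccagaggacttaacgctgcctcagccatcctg
G6pdx: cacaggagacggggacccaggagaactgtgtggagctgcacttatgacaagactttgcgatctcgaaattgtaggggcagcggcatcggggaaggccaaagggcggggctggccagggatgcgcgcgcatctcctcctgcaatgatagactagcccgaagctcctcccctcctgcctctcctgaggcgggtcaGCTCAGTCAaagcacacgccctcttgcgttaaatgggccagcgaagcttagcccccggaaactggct
Me1: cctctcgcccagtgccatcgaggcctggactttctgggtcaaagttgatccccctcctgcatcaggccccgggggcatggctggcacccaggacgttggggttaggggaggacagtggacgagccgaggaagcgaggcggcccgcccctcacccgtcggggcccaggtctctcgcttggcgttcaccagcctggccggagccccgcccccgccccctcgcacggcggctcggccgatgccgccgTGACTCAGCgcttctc
The search covered 300 bases of each of 32851 promoters, 250 before and 50 after the start site, on both strands. All 9 genes had a promoter in the table, 12 in all. The antioxidant response element, spelled TGACNNNGC, was in 12.4% of all promoters, the AP-1 site, spelled TGANTCA, in 7.81% and the ATF4 element, spelled TGATGNAA, in 3.97%. In G6pdx the antioxidant element stood on the strand opposite to that of the gene, from 57 to 48 bases before the start site, and in Me1 it began 6 bases before the start site and ran across it, overlapping an AP-1 match. Pgd held an antioxidant element only just past its second annotated start site. Of the 9 genes, 3 held at least 1 of the motifs and 6 held none. A match is a string of letters and was not tested as a binding site, and the lack of one says only that these letters are not in this window.

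Values below are normalized log2 signals, the log2 of the background-corrected spot intensity minus the array's 75th percentile, so that 1 unit is a factor of 2 within a probe. Each gene is given by its brightest probe, and levels are not compared between genes. The 8 brightest probes were well above background on all 24 arrays and none was saturated. A gene was called higher or lower when the Benjamini-Hochberg adjusted p of limma, over all probes tested in the set, was below 0.05 and the fold change went beyond 1.5. The share of spots well above background was 57.7% to 68.1% in the first set and 76.4% to 79.4% in the second, and the median residual SD of a probe was 0.107 and 0.341, so differences of the second set carry wider errors. All 7 fibroblast markers examined (Col1a1, Col1a2, Col3a1, Vim, Pdgfrb, Thy1 and Fn1) were well above background on every array of both untreated groups.

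The fibroblast markers moved with the treatments. Their summed signal, in units of the array's 75th percentile, was 986 to 1070 in the first controls, 929 to 987 with KBrO3 alone and 738 to 774 with co-exposure at 4 hr, and 436 to 487 and 322 to 371 at 24 hr. At 24 hr 6 of the 7 were called lower with KBrO3 alone and 6 with co-exposure (21.2% and 24% of all genes were), and Thy1 was not well above background on any co-exposed array. In the second set the sum was 486 to 629 in the controls, 514 to 588 at 4 hr and 442 to 497 at 24 hr of BPA. Of 9 markers of epithelium, leukocytes, endothelium, muscle and fat, 1 was well above background on all arrays of the first controls and 3 on none, and their summed signal was 0.205 to 0.220 there, against 0.646 to 0.816, 0.501 to 0.530, 0.323 to 0.363 and 0.448 to 0.528 with KBrO3 at 4 hr, co-exposure at 4 hr, KBrO3 at 24 hr and co-exposure at 24 hr. In the second set 6 of the 9 were well above background on all control arrays, 6 at 4 hr and 7 at 24 hr of BPA, and the sum was 0.213 to 0.367 in the controls, 0.228 to 0.254 at 4 hr and 0.212 to 0.231 at 24 hr of BPA. Of the 9, 4 were tested in the first set, and 2 were called higher with KBrO3 alone at 4 hr, 3 with co-exposure at 4 hr and 1 in each 24 hr group, where 21%, 28.1%, 12.5% and 15.5% of all genes were called higher. With co-exposure at 4 hr 4 of the 9 were well above background on all arrays, against 1 in each other group of the first set. All tested markers but 1 thus entered the fit only through that group, and no rise is read from its count. Cd68, a macrophage marker, was well above background on every array and was called higher in all 4 groups, at 2.25, 1.66, 1.16 and 1.87. Krt8, an epithelial keratin, was well above background on 0 of 3 untreated arrays of that set, 1 of 3 with KBrO3 alone and 3 of 3 with co-exposure at 4 hr. Myog, a muscle gene, was called higher with co-exposure at 4 hr, at 1.52. As Myog entered the fit only through that group, nothing is read from the call. Epcam and Ptprc, which define epithelium and leukocytes, were not well above background on all arrays of any group. The part of these shifts in the results below was not tested, and in RNA of whole cultures fewer cells of a type and less RNA per cell cannot be told apart.

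**Figure D1:**
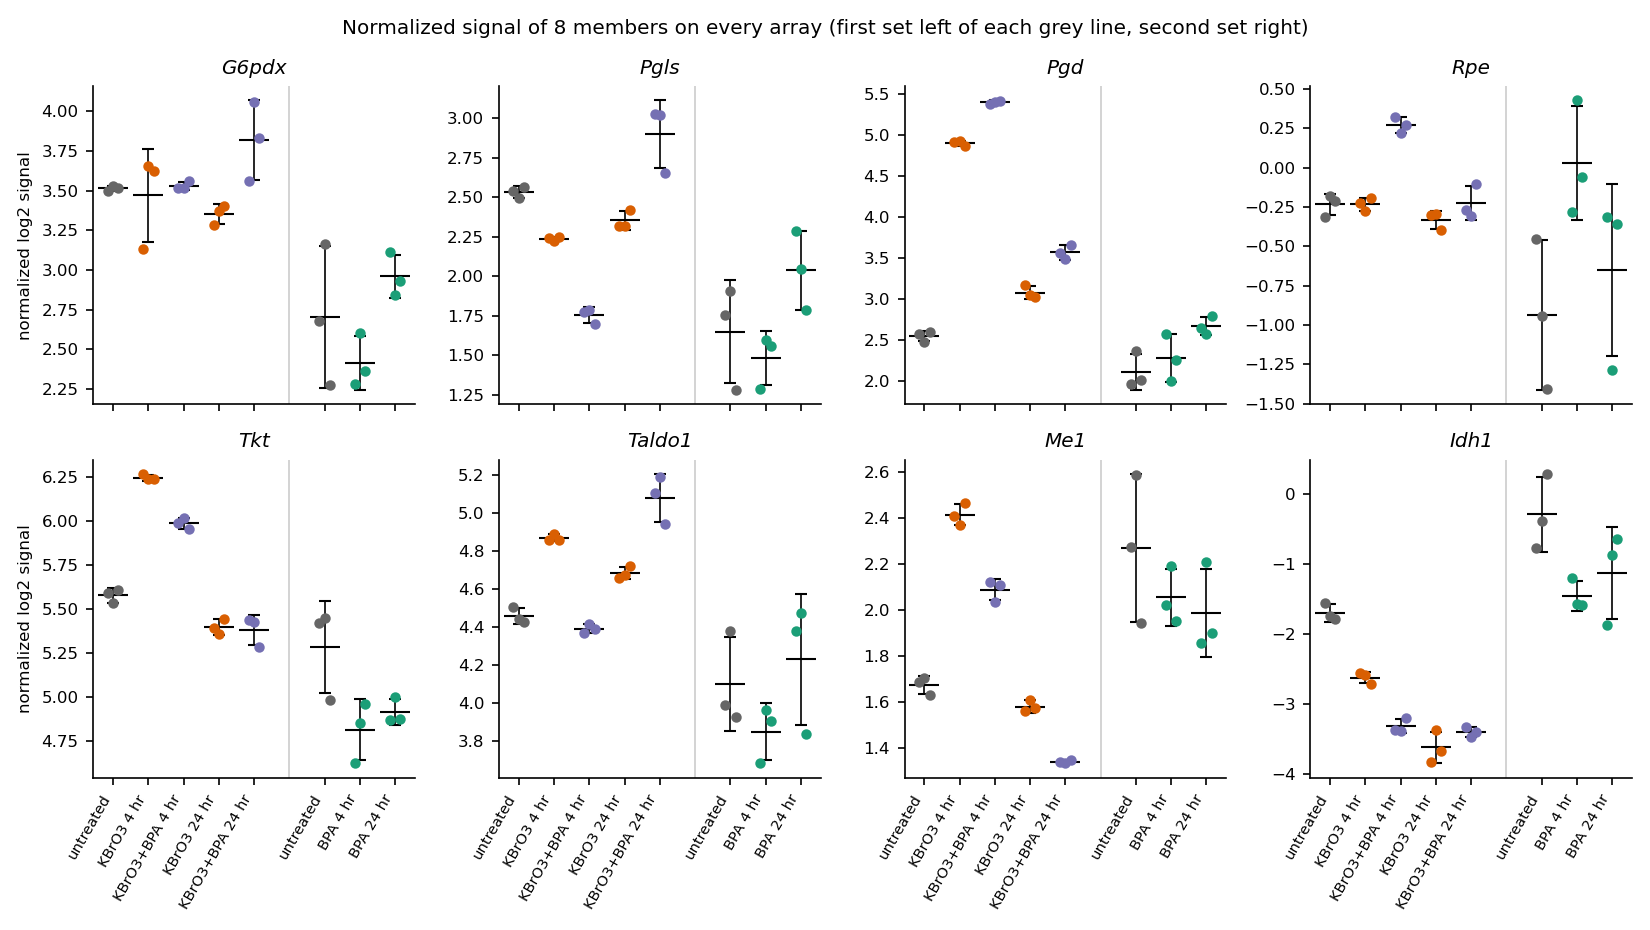
Normalized log2 signal (vertical axis, own scale per gene) of 8 genes on every array, with 5 groups of the first set to the left of each grey line and 3 of the second to the right. Points are arrays, the bar is the mean and the whiskers are 1 SD over 3 arrays. The Pgd points of both 4 hr KBrO3 groups lie between 4.86 and 5.41, above all others of that gene, and the Idh1 points of all 4 exposed groups of the first set lie at or below −2.57, under the untreated arrays.

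In the oxidative branch Pgd was called higher at 4 hr, and neither G6pdx nor Pgls was. Pgd, the enzyme of the second NADPH-yielding step, had a normalized log2 signal of 2.57, 2.48 and 2.59 on the untreated arrays of the first set. At 4 hr it had reached 4.91, 4.92 and 4.86 with KBrO3 alone, and with co-exposure at 4 hr it was 5.38, 5.40 and 5.41. The 3 groups did not overlap, and the arrays of each 4 hr group lay close together. The log2 difference from untreated was 2.35 ± 0.054 (SE, n = 3 arrays a group) with KBrO3 alone, 5.08-fold with a limma adjusted p of 2.8e-12, and 2.85 ± 0.054 with co-exposure, 7.21-fold with an adjusted p of 4.36e-13.

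At 24 hr Pgd had come down but stood above the controls. Its signal was 3.17, 3.05 and 3.02 with KBrO3 alone and 3.55, 3.48 and 3.66 with co-exposure, and every one of these 6 arrays lay above every untreated array. The difference from untreated was 0.53 with KBrO3 alone, 1.45-fold and under the fold limit (limma adjusted p 2.8e-06), and 1.02 with co-exposure, a called rise of 2.03-fold (adjusted p 5.67e-09). The former passed the limit under quantile normalization (0.61), median scaling (0.68) and normexp background correction (0.82).

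G6pdx, the first and rate-limiting enzyme of the branch, was not called at either time. Its signal was 3.50, 3.53 and 3.52 in untreated cells, 3.13, 3.66 and 3.62 with KBrO3 alone and 3.52, 3.52 and 3.56 with co-exposure at 4 hr. The first KBrO3 array was the low one and the group spanned the untreated values. The log2 difference was −0.05 (95% confidence interval −0.35 to 0.25, limma adjusted p 0.769) with KBrO3 alone and 0.02 (−0.28 to 0.31) with co-exposure, intervals that do not reach differences of the size seen for Pgd. At 24 hr G6pdx was 3.28, 3.37 and 3.40 with KBrO3 alone and 3.56, 4.06 and 3.83 with co-exposure. The difference of 0.30 from untreated in co-exposed cells had an adjusted p of 0.0676. It depended on the processing, since G6pdx was called higher there at 0.62 under median scaling (adjusted p 0.00233) and at 0.59 with normexp background correction (adjusted p 0.0180).

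Pgls, which opens the lactone ring between the 2 dehydrogenases, went down and then up in co-exposed cells. Its signal was 2.54, 2.49 and 2.56 in untreated cells, 2.24, 2.22 and 2.25 on the KBrO3 arrays and 1.77, 1.79 and 1.70 on the co-exposed arrays at 4 hr. The groups did not overlap, and the co-exposed arrays were the lowest. The fall with co-exposure was called, at −0.78 ± 0.083 (SE) or 0.583 of the untreated level (limma adjusted p 2.44e-06), whereas the difference with KBrO3 alone, −0.29, was under the fold limit. With normexp background correction the fall with co-exposure was −0.55 and also under it, and at the Bonferroni limit of 0.01 its call was lost (Bonferroni p 0.0247). At 24 hr the signal was 2.32, 2.32 and 2.42 with KBrO3 alone and 3.03, 3.02 and 2.65 with co-exposure. The co-exposed arrays then lay above all untreated ones, by 0.37 on average, which was again under the fold limit (adjusted p 0.00176). Under median scaling it was 0.68 and with normexp 0.62, called higher in both.

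In the non-oxidative branch Tkt, which transfers 2-carbon units between sugar phosphates, rose with KBrO3 alone at 4 hr. Its signal was 5.59, 5.53 and 5.61 in untreated cells, 6.27, 6.24 and 6.24 with KBrO3 alone and 5.99, 6.02 and 5.95 with co-exposure at 4 hr. Both treated groups lay above the controls without overlap. The difference was 0.67 ± 0.046 with KBrO3 alone, a called rise of 1.59-fold (limma adjusted p 4.72e-08), and 0.41 with co-exposure, 1.33-fold and under the limit. Under quantile normalization the rise with KBrO3 alone was 0.27 and no longer past the fold limit, and with normexp background correction that with co-exposure was 0.68 and was called (adjusted p 0.00628). At 24 hr the signal was 5.39, 5.36 and 5.44 with KBrO3 alone and 5.44, 5.42 and 5.28 with co-exposure, and all 6 arrays were below the untreated ones by −0.18 and −0.20 on average. With the mean of all tested probes the value with co-exposure was −0.69 and was called lower (adjusted p 0.00391). That mean includes a probe well above background on 0 of 3 arrays in both groups, so no fall is read from it.

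Taldo1, which transfers 3-carbon units, was highest in co-exposed cells at 24 hr. The untreated arrays gave 4.51, 4.44 and 4.43, those with KBrO3 alone at 4 hr 4.86, 4.89 and 4.86 and the co-exposed ones at 4 hr 4.37, 4.42 and 4.39. At 24 hr the signal was 4.66, 4.68 and 4.72 with KBrO3 alone and 5.11, 5.19 and 4.94 with co-exposure. The rise in co-exposed cells at 24 hr was called, at 0.62 ± 0.055 or 1.54-fold (limma adjusted p 6.36e-07), close to the limit, and it dropped below that limit, to 0.57, without co-exposed replicate 2. The value with KBrO3 alone at 4 hr was 0.41 (1.33-fold), which became 0.70 and was called with normexp background correction (adjusted p 0.00508), and that with co-exposure at 4 hr −0.07 (adjusted p 0.281).

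Rpe, which interconverts ribulose 5-phosphate and xylulose 5-phosphate, was near its untreated level in 3 of the 4 groups by its brightest probe. That probe gave −0.31, −0.18 and −0.21 in untreated cells, −0.22, −0.28 and −0.20 on the KBrO3 arrays and 0.32, 0.22 and 0.27 on the co-exposed arrays at 4 hr. The last group stood apart, by 0.50 or 1.42-fold (limma adjusted p 6.54e-06), under the fold limit. At 24 hr the values were −0.30, −0.30 and −0.40 with KBrO3 alone and −0.27, −0.31 and −0.10 with co-exposure, which overlapped the controls. Its other probes gave another picture, described further on.

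For Rpia, the isomerase that yields ribose 5-phosphate, no probe carried its symbol. A probe of the array described as ribose 5-phosphate isomerase mRNA but listed under a transcript name lay outside the rule. It gave 2.33, 2.33 and 2.29 in untreated cells, 2.88, 2.87 and 2.86 on the KBrO3 arrays and 3.07, 3.12 and 3.17 on the co-exposed arrays at 4 hr. Its difference was 0.55 with KBrO3 alone, under the fold limit, and 0.80 ± 0.047 with co-exposure, which passed both thresholds (limma adjusted p 8.09e-09), and 0.10 and 0.23 at 24 hr. It enters no count below.

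Outside the pathway Me1 and Idh1, the members that supply cytosolic NADPH by other reactions, moved in opposite directions at 4 hr. Me1, which makes NADPH while turning malate into pyruvate, had a signal of 1.69, 1.70 and 1.63 in untreated cells, 2.41, 2.37 and 2.46 on the KBrO3 arrays and 2.12, 2.03 and 2.11 on the co-exposed arrays at 4 hr. The 3 groups did not overlap. The rise with KBrO3 alone was called, at 0.74 ± 0.039 or 1.67-fold (limma adjusted p 3.3e-09), and that of 0.41 with co-exposure was under the limit. At 24 hr Me1 stood at 1.56, 1.61 and 1.57 with KBrO3 alone and at 1.34, 1.33 and 1.35 with co-exposure, −0.09 and −0.33 from untreated and both under the limit.

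Idh1, which oxidizes isocitrate to 2-oxoglutarate in the cytosol and peroxisomes, fell in all 4 groups. Its signal was −1.56, −1.75 and −1.79 in untreated cells, −2.57, −2.59 and −2.72 on the KBrO3 arrays and −3.37, −3.39 and −3.21 on the co-exposed arrays at 4 hr. At 24 hr it was −3.83, −3.38 and −3.67 with KBrO3 alone and −3.33, −3.48 and −3.40 with co-exposure. No treated array reached the lowest untreated one. At 4 hr the log2 difference was −0.93 ± 0.11 with KBrO3 alone (0.526 of untreated, limma adjusted p 5.08e-06) and −1.62 ± 0.11 with co-exposure (0.324 of untreated, adjusted p 2.10e-08). At 24 hr it was −1.93 (0.263 of untreated, adjusted p 1.10e-08) and −1.70 (0.307 of untreated, adjusted p 2.40e-08). The call with KBrO3 alone at 4 hr was lost at the Bonferroni limit of 0.01 (Bonferroni p 0.0491).

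**Figure D2:**
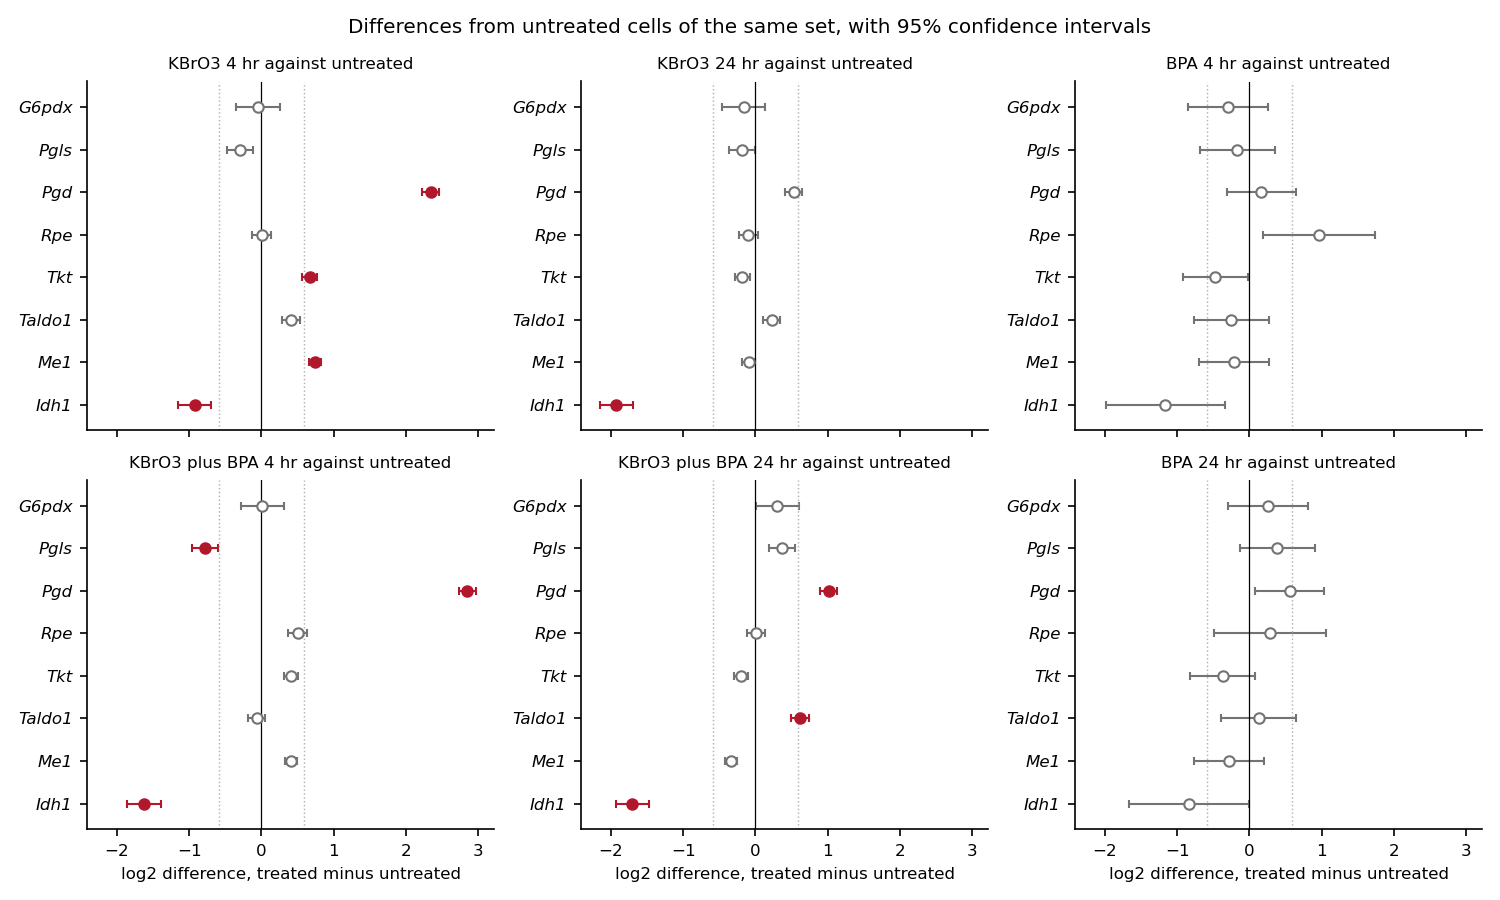
Log2 difference from the untreated cells of the same set (horizontal axis) for 8 genes in 6 comparisons, 4 in the first set and 2 with BPA alone, with 95% confidence intervals. Filled red points passed both thresholds, open grey points did not, and dotted lines mark 1.5-fold. Pgd at 4 hr, at 2.35 and 2.85, lies farthest to the right and Idh1 is called on the left in all 4 comparisons of the first set, while the intervals of the BPA comparisons are wider and hold no filled point.

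Counted over the 8 genes with a probe, KBrO3 alone at 4 hr called 3 higher (Pgd, Me1 and Tkt) and 1 lower (Idh1), beside 21% of all 14335 genes tested called higher and 22.9% called lower. With co-exposure at 4 hr 1 was called higher (Pgd) and 2 lower (Idh1 and Pgls), against 28.1% and 26.6% of all genes. At 24 hr KBrO3 alone called only Idh1, lower, against 12.5% higher and 21.2% lower over all genes. Co-exposure at 24 hr called 2 higher (Pgd and Taldo1) and 1 lower (Idh1), against 15.5% and 24%. With 8 genes and such a background, nothing is read from the counts themselves. The median log2 difference of the 8 was 0.21, 0.21, −0.13 and 0.15 in this order, and that of all genes tested 0.02, 0.01, −0.07 and −0.06. These 4 comparisons share the same 3 controls.

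The slides set a limit on these comparisons. Of the 4 treated groups on these slides, KBrO3 alone at 4 hr was the one that shared a slide with a control, 3 arrays against 1, and there the log2 difference was 2.30 for Pgd, 0.64 for Tkt, 0.78 for Me1 and −0.84 for Idh1. For co-exposure at 4 hr and both 24 hr groups no slide held a control as well, so no difference within a slide could be taken from untreated.

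Between 4 and 24 hr the transcripts that had risen came down. With KBrO3 alone Pgd fell by 1.81 (limma adjusted p 3.01e-11), Tkt by 0.85 (adjusted p 5.84e-09) and Me1 by 0.83 (adjusted p 1.33e-09), and Idh1 fell by a further 1.00 (adjusted p 2.58e-06). These 4 genes were called lower and none higher, where 28.6% of all genes were called lower and 19.2% higher. In co-exposed cells Pgd fell by 1.83 (adjusted p 2.13e-11), Me1 by 0.75 (adjusted p 2.97e-09) and Tkt by 0.61 (adjusted p 1.18e-07), while Pgls rose by 1.14 or 2.21-fold (adjusted p 6.80e-08) and Taldo1 by 0.69 (adjusted p 1.71e-07). The 2 called higher and 3 called lower stand beside 23.3% and 34.2% of all genes. With the mean of all tested probes the fall of Me1 with KBrO3 alone was −0.52 and under the fold limit, and its dimmer probe had −0.20 (adjusted p 0.0713). In co-exposed cells neither Me1 (−0.29) nor Tkt (−0.15, adjusted p 0.123) was called under median scaling. The fall of Tkt in co-exposed cells was −0.56 and under the fold limit without co-exposed replicate 3 at 24 hr and with slide as a fixed block, −0.55 with normexp background correction (adjusted p 0.0215), also under it, and −0.27 under quantile normalization, where that with KBrO3 alone was −0.20. G6pdx, at 0.29 in the co-exposed cells, was called higher at 0.75 under median scaling (adjusted p 4.91e-04), and the fall of Idh1 with KBrO3 alone was lost at the Bonferroni limit. The arrays with KBrO3 alone at 4 hr shared no slide with those at 24 hr, so slide and time cannot be told apart there. The co-exposed groups shared none either and are tied only through KBrO3 arrays at 24 hr, which the fixed block uses. Idh1 had a difference of −0.08 between the times in co-exposed cells (adjusted p 0.495), having been at its low level by 4 hr.

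The comparison of co-exposure with KBrO3 alone asks what BPA added to the oxidant. At 4 hr the addition went with lower signals for 5 of the 8 genes and higher signals for 3, but only the fall of Idh1 was called, at −0.70 ± 0.11 or 0.616 of the level with KBrO3 alone (limma adjusted p 1.59e-04). Over all genes 10.7% were called higher and 9.05% lower. With normexp background correction the difference of Idh1 was −0.42 and was not called (adjusted p 0.285), and the groups lay on different slides, so slide and treatment cannot be told apart here. Pgd was 0.50 higher (1.42-fold, adjusted p 1.16e-05) and Rpe 0.50 higher (adjusted p 2.62e-05), both under the fold limit. Pgls at −0.48, Taldo1 at −0.48, Me1 at −0.33 and Tkt at −0.26 were lower, with adjusted p-values of 4.02e-04, 1.97e-05, 2.66e-05 and 5.57e-04, also under it. The dimmer Me1 probe had means of 0.94 with KBrO3 alone and 0.97 with co-exposure, and its groups overlapped. Another Tkt probe was called higher, as described further on. Under median scaling Pgls and Taldo1 were also called lower, at −0.63 and −0.62. G6pdx differed by 0.06.

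At 24 hr none of the 8 genes was called by limma between co-exposure and KBrO3 alone, although 5 had an unadjusted p below 0.05. Over all genes 6.59% were called higher and 7.67% lower. Pgls was 0.55 higher (1.46-fold, adjusted p 1.90e-04), Pgd 0.49 (1.40-fold, adjusted p 1.48e-05), G6pdx 0.46 (adjusted p 0.0149) and Taldo1 0.39 (adjusted p 9.57e-05), and Me1 was 0.24 lower (adjusted p 3.04e-04). Idh1 differed by 0.22, with an interval of −0.01 to 0.45. On the 1 slide that held both groups, 2 arrays against 2, the differences were 0.65 for Pgls, 0.48 for Pgd, 0.42 for G6pdx, 0.45 for Taldo1, −0.25 for Me1 and 0.12 for Idh1. With the slide as a random block Pgls passed both thresholds, at 0.60, and under median scaling Pgls, Pgd and G6pdx did, at 0.71, 0.66 and 0.63.

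The 24 hr difference was tested directly against the 4 hr difference. For Pgls the change was 1.03 ± 0.12 (SE, limma adjusted p 2.87e-05), as the added BPA went with a lower signal at 4 hr and a higher one at 24 hr. For Taldo1 it was 0.87 ± 0.077 (adjusted p 4.58e-06), again from lower to higher, and for Idh1 it was 0.92 ± 0.15 (adjusted p 3.40e-04), from −0.70 to 0.22. These 3 of the 8 were called, where 26.7% of all genes were. For Pgd the change was −0.02, with an interval of −0.18 to 0.15. With normexp background correction Taldo1 (0.83, adjusted p 0.0539) and Idh1 (0.67, adjusted p 0.233) were not called. G6pdx at 0.40 had an adjusted p of 0.0979 and was called under median scaling, at 0.71 (adjusted p 0.0128). Rpe at −0.40 (adjusted p 0.00206) and Tkt at 0.24 (adjusted p 0.00857) were under the fold limit. By its group means another probe of Rpe, and another of Tkt, had the opposite sign. Me1 at 0.09 had an adjusted p of 0.206.

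**Figure D3:**
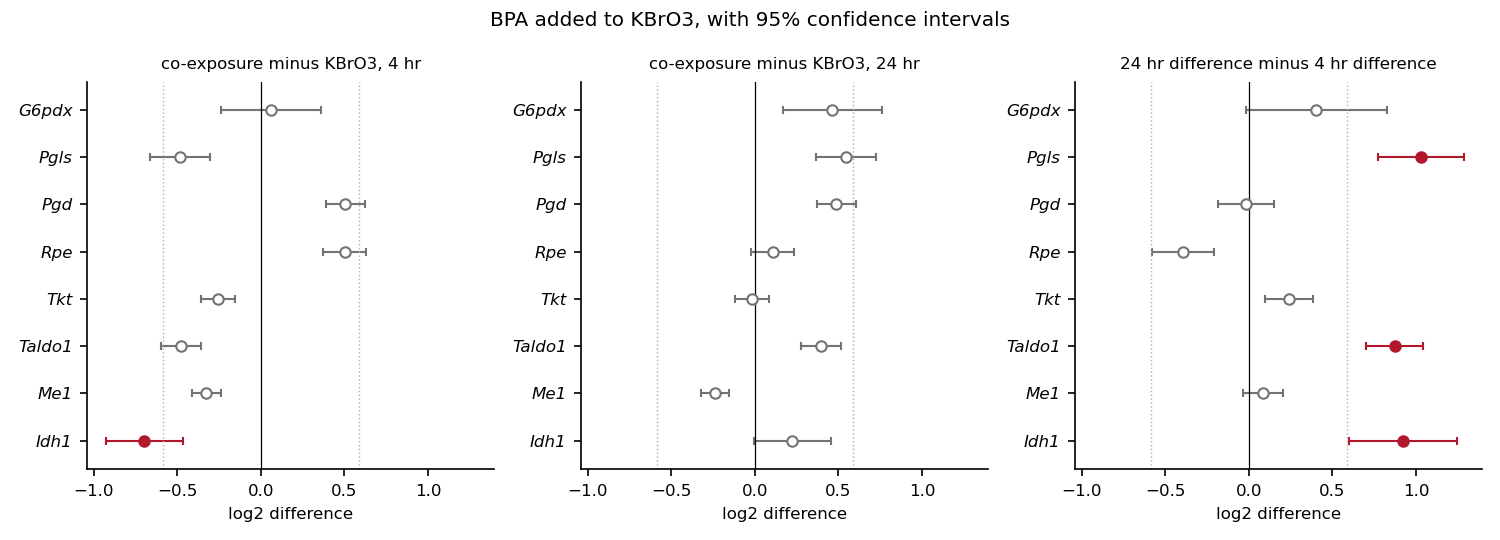
Log2 difference between co-exposed cells and cells given KBrO3 alone at 4 hr (left) and 24 hr (middle), and the change of that difference between the times (right), for 8 genes with 95% confidence intervals. Filled red points passed both thresholds and dotted lines mark 1.5-fold. Idh1 at −0.70 is the only filled point at 4 hr, none is filled at 24 hr, and Pgls, Taldo1 and Idh1 are filled on the right at 1.03, 0.87 and 0.92.

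With BPA alone none of the 8 genes was called by limma at 4 or 24 hr, although 3 had an unadjusted p below 0.05 at 4 hr and 2 at 24 hr. Over all 16006 genes tested 3.02% were called higher and 1.67% lower at 4 hr, and 1.82% and 2.47% at 24 hr. The median log2 difference of the 8 was −0.23 at 4 hr and 0.19 at 24 hr, and that of all genes −0.06 and 0.02. Arrays of this set spread more widely, so the intervals are wide. A fit of all 24 arrays called Idh1 and Rpe at 4 hr and Idh1 at 24 hr. Their differences were unchanged there, and the spread was pooled with that of the first set.

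Idh1 gave −0.78, −0.38 and 0.29 in the untreated cells of the second set, −1.20, −1.58 and −1.58 after 4 hr of BPA and −1.87, −0.86 and −0.64 after 24 hr. At 4 hr all 3 arrays lay under the controls and at 24 hr the groups overlapped. The log2 differences were −1.16 ± 0.37 (limma adjusted p 0.122) and −0.84 ± 0.37 (adjusted p 0.268). On the slides that held both a control and BPA arrays they were −0.61 at 4 hr and −1.49 and −1.15 at 24 hr.

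Pgd gave 1.96, 2.36 and 2.02 in those controls, 2.58, 2.00 and 2.26 after 4 hr of BPA and 2.65, 2.58 and 2.79 after 24 hr. The groups overlapped at 4 hr and did not at 24 hr. The differences were 0.17 (limma adjusted p 0.712) and 0.56 (adjusted p 0.205). Rpe gave −0.45, −0.95 and −1.40 in the controls and −0.28, 0.43 and −0.06 after 4 hr of BPA, without overlap, a difference of 0.96 ± 0.34 with an adjusted p of 0.169. At 24 hr, with −0.31, −1.28 and −0.36, it overlapped them.

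The other 5 genes were not called with BPA alone either. Tkt was −0.47 from the controls at 4 hr (limma adjusted p 0.242) and −0.37 at 24 hr. G6pdx was at −0.29 and 0.26, Pgls at −0.17 and 0.39, Taldo1 at −0.25 and 0.13 and Me1 at −0.21 and −0.28, with adjusted p-values of 0.412 to 0.816. Between 24 and 4 hr of BPA none of the 8 was called and 1 had an unadjusted p below 0.05, where 1.23% of all genes were called higher and 3.04% lower.

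The effect of BPA alone was set against the effect of BPA added to KBrO3 in 1 fit of all 24 arrays. The spread of both sets was pooled here too. None of the 8 genes was called at 4 or 24 hr, with 0 and 2 at an unadjusted p below 0.05, where 17.2% and 5.83% of all genes were called. For Idh1 at 24 hr the effects differed by −1.06 (limma adjusted p 0.108). That difference was called with slide as a random block (−1.22, adjusted p 0.00744) or a fixed block (−1.44, adjusted p 8.52e-04). It was also called, at −1.30, without untreated replicate 1 or without 24 hr BPA replicate 3 of the second set. For Pgd the effects differed by −0.34 and 0.07 at the 2 times, with adjusted p-values of 0.195 and 0.908.

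**Figure D4:**
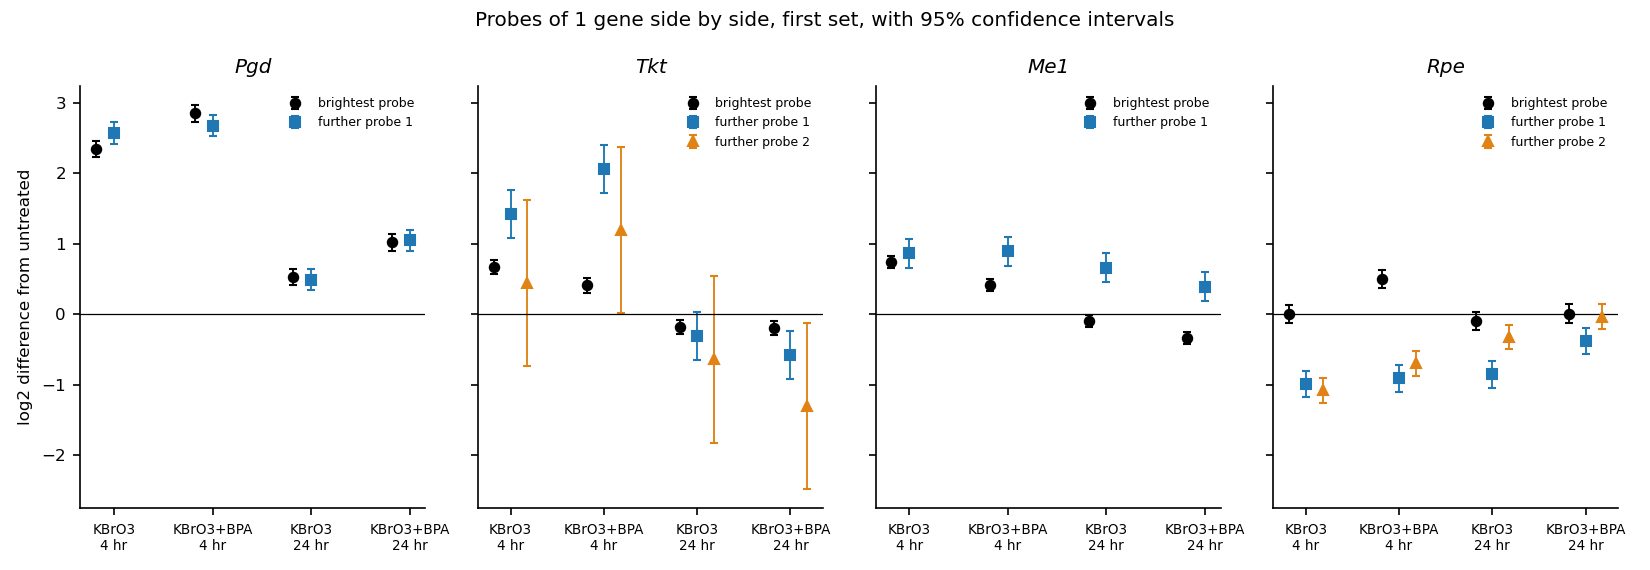
Log2 difference from untreated cells (vertical axis) in 4 groups of the first set for each probe of 4 genes, with 95% confidence intervals. Circles are the brightest probe and squares and triangles the further probes. Both Pgd probes lie together, at 2.35 and 2.57 with KBrO3 alone at 4 hr, whereas the Rpe probes part, the brightest at 0.00 and the others at −0.99 and −1.08.

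More than 1 probe was listed for 5 genes, and the probes of a gene did not always give the same answer. The positions are those of the array design, on mouse build mm7. For Pgd the probes at chr4:148139726-148139785 and chr4:148140245-148140304, both on the minus strand, gave like differences from untreated, the dimmer one 2.57 and 2.68 at 4 hr and 0.49 and 1.05 at 24 hr. They parted on what BPA added at 4 hr, where the dimmer probe had a difference of 0.11 (limma adjusted p 0.207) against 0.50 for the brightest.

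For Tkt a dimmer probe at chr14:28004143-28004202 on the plus strand rose more than the brightest one at chr14:28003060-28003119, by 1.42 with KBrO3 alone and 2.06 with co-exposure at 4 hr, both called. By that probe the level with co-exposure at 4 hr was 0.65 above that with KBrO3 alone and was called higher, where the brightest probe had −0.26. The last Tkt probe was well above background on all arrays of co-exposure at 4 hr only. For Me1 the dimmer probe, designed on an mRNA of a null allele, was called higher at 0.86, 0.90 and 0.66 with KBrO3 at 4 hr, co-exposure at 4 hr and KBrO3 at 24 hr, and lay at 0.39 with co-exposure at 24 hr. At 24 hr this differs in sign from the brightest probe, which was at −0.09 and −0.33.

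The probes of Rpe differed in direction. Where its brightest probe had 0.00 with KBrO3 alone and 0.50 with co-exposure at 4 hr, a second probe was called lower at −0.99 and −0.91 and the third at −1.08 and −0.69. At 24 hr with KBrO3 alone the second was still called lower, at −0.85, and the third had −0.32. Both of these probes are listed under the RefSeq mRNA of Rpe and the brightest under another cDNA, so a direction for Rpe against untreated cells cannot be given from the first set. The 3 probes had the same sign, with none called, at 0.50, 0.08 and 0.39 for co-exposure against KBrO3 alone at 4 hr, at 0.96, 0.25 and 0.57 for BPA alone at 4 hr and at 0.28, 0.61 and 0.91 at 24 hr. Between 24 and 4 hr their signs differed again, at −0.10, 0.14 and 0.76 with KBrO3 alone, −0.49, 0.53 and 0.66 with co-exposure and −0.68, 0.36 and 0.34 with BPA alone. The second Pgls probe carried the accession of a neighbouring gene, Niban3, in the second set's files, and its values are left out.

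**Figure D5:**
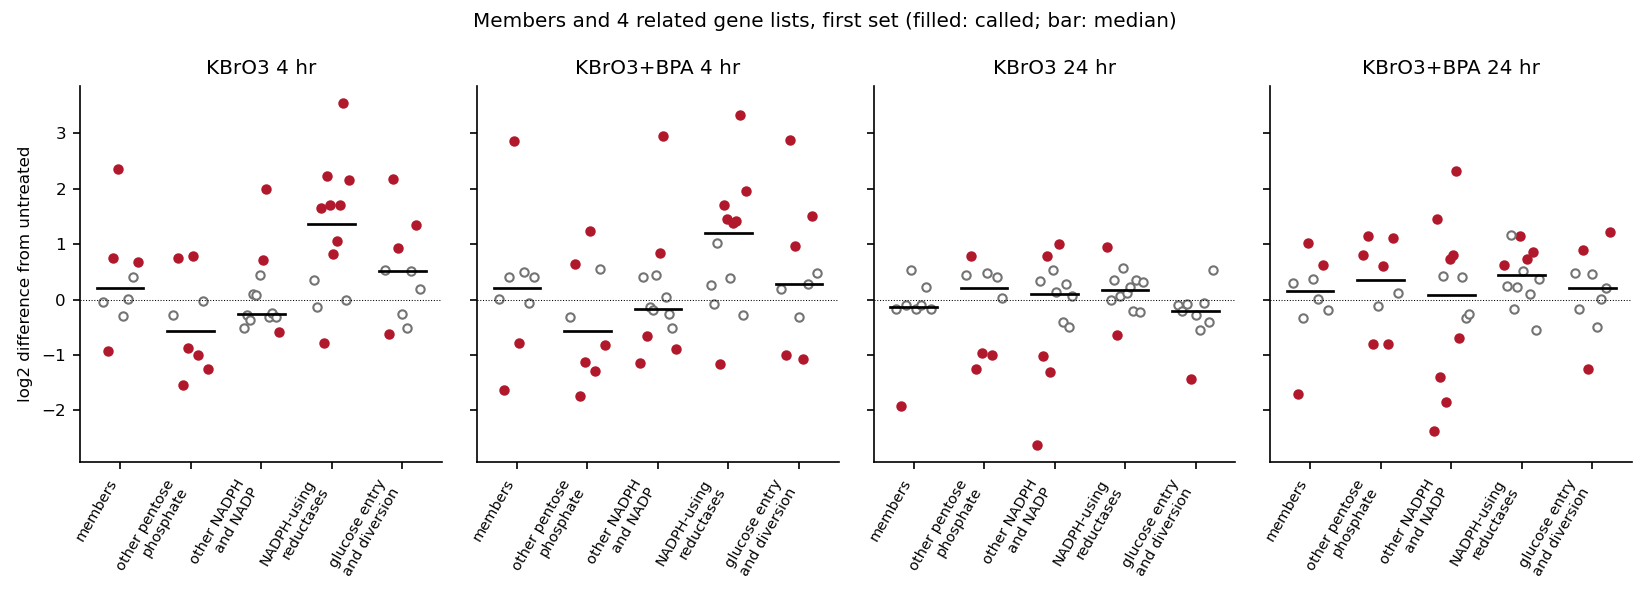
Log2 difference from untreated cells (vertical axis) of the 8 genes and of 4 lists of related genes in 4 groups of the first set. Each point is a gene, filled red where called, and the bar is the median. The reductases that use NADPH have the highest medians at 4 hr, 1.35 with KBrO3 alone and 1.20 with co-exposure, and medians of 0.18 and 0.44 at 24 hr.

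Related genes were counted from lists written from general knowledge, with earlier results of these data known. Of 10 other genes of pentose phosphate metabolism, 8 were tested in the first set, and 2 were called higher and 4 lower with KBrO3 alone at 4 hr, 2 and 4 with co-exposure at 4 hr, 1 and 3 with KBrO3 at 24 hr and 4 and 2 with co-exposure at 24 hr. The shares of all genes called higher and lower in these 4 comparisons, given above, were 21% and 22.9%, 28.1% and 26.6%, 12.5% and 21.2%, and 15.5% and 24%. The medians of the list were −0.58, −0.57, 0.21 and 0.36, and with BPA alone limma called none of the 9 tested at 4 hr, where 3.02% and 1.67% of all genes were called higher and lower, or at 24 hr, where 1.82% and 2.47% were (4 and 3 had an unadjusted p below 0.05). H6pd, which runs the first 2 steps of the oxidative branch inside the endoplasmic reticulum, was called lower in all 4 groups, at −1.54, −1.74, −1.25 and −0.80. Prps2 and Prps1, isoforms of the synthetase that activates ribose 5-phosphate for nucleotide synthesis, went opposite ways at 4 hr, Prps2 at −0.99 and −1.29 and Prps1 at 0.79 and 1.23, all called. Shpk, which phosphorylates sedoheptulose, was called lower at 4 hr, at −1.25 and −0.82, and lay at 0.03 and 0.12 at 24 hr.

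Of 12 other genes listed for NADPH and NADP metabolism, 2 were called higher and 1 lower with KBrO3 alone at 4 hr. The counts with co-exposure at 4 hr were 2 and 3. At 24 hr they were 2 and 3 with KBrO3 alone and 4 and 4 with co-exposure. Over all genes 21% and 22.9%, 28.1% and 26.6%, 12.5% and 21.2%, and 15.5% and 24% were called higher and lower, so several of these counts are near the background. The medians were −0.27, −0.16, 0.10 and 0.07. Mthfd2, a dehydrogenase of mitochondrial folate metabolism, was called higher in all 4 groups, at 1.99, 2.96, 1.01 and 2.32. Mthfd2 was also called higher with BPA alone, at 1.41 (limma adjusted p 0.00793) and 1.43 (adjusted p 0.00966), and was the 1 gene of the list called higher at each time, where 3.02% and 1.82% of all genes were called higher. Aldh1l1, a cytosolic folate enzyme that makes NADPH, was called lower at −1.14 with co-exposure at 4 hr, at −2.63 and −2.37 at 24 hr and at −1.63 after 4 hr of BPA alone (adjusted p 0.0254), where it was the 1 gene of the list called lower, against 1.67% of all genes.

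Of the mitochondrial counterparts of Idh1 and Me1, 2 were lower at 24 hr and 1 was higher. Idh2 was called at −1.02 with KBrO3 alone and −1.41 with co-exposure at 24 hr and at −0.66 with co-exposure at 4 hr, and Me3 was called at −1.31 and −1.84 at 24 hr. Me2, another mitochondrial malic enzyme and chosen after its values were seen, was called higher at 0.79 with KBrO3 alone at 24 hr (limma adjusted p 6.40e-09) and lay at 0.42 with co-exposure, under the fold limit. Aldh1l2, the mitochondrial form of Aldh1l1, was called higher only with co-exposure at 24 hr among these 4 groups, at 1.45. Nadk, the kinase that makes NADP, was called in none of them, at −0.25, −0.27, 0.28 and 0.41.

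Of 12 reductases that use NADPH, 8 were called higher and 1 lower with KBrO3 alone at 4 hr, against 21% and 22.9% of all genes, and the median was 1.35 against 0.02. The counts were 6 and 1 with co-exposure at 4 hr, 1 and 1 with KBrO3 at 24 hr and 4 and 0 with co-exposure at 24 hr, with medians of 1.20, 0.18 and 0.44, where 28.1% and 26.6%, 12.5% and 21.2%, and 15.5% and 24% of all genes were called. Txnrd1, the cytosolic thioredoxin reductase, led at 4 hr, at 3.54 (11.6-fold) with KBrO3 alone and 3.33 (10.1-fold) with co-exposure, and lay at 0.35 and 0.85 at 24 hr. Its differences with BPA alone were 0.89 at 4 hr, which was called (limma adjusted p 0.040), and 0.79 at 24 hr (adjusted p 0.068). Cbr3, a carbonyl reductase, was at 2.23 and 1.71 at 4 hr, Txnrd3 at 2.16 and 1.96 and Por, which passes electrons to cytochromes P450, at 1.70 and 1.41, all called. Between co-exposure and KBrO3 alone none of the 12 was called by limma at either time, where 10.7% and 9.05% of all genes were called higher and lower at 4 hr and 6.59% and 7.67% at 24 hr. Without the fold limit 9 were lower and 1 higher at 4 hr and 8 higher and 2 lower at 24 hr. By that looser rule 60.9% of all genes passed at 4 hr and 50.4% at 24 hr, counting both directions. In the direct test of the change between the times 6 of the 12 were called, all toward higher at 24 hr, with a median change of 0.64, where 26.7% of all genes were called in either direction.

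Of 9 genes that bring glucose to the branch point or divert it, 3 were called higher and 1 lower with KBrO3 alone at 4 hr, 3 and 2 with co-exposure at 4 hr, 0 and 1 with KBrO3 at 24 hr and 2 and 1 with co-exposure at 24 hr, with medians of 0.51, 0.29, −0.21 and 0.20. The shares of all genes were 21% and 22.9%, 28.1% and 26.6%, 12.5% and 21.2%, and 15.5% and 24%. With BPA alone 2 were called higher and 1 lower at 4 hr, against 3.02% and 1.67% of all genes, and 3 higher and 0 lower at 24 hr, against 1.82% and 2.47%, with medians of 0.01 and 0.81. Hk2, a hexokinase, was called higher at 2.18 and 2.87 at 4 hr, and after BPA alone at 3.21 (9.27-fold, limma adjusted p 0.00126) and 2.69 (adjusted p 0.00459). Slc2a1, the glucose transporter GLUT1, was called higher at 1.34 and 1.51 at 4 hr and at 1.49 after 24 hr of BPA (adjusted p 0.00966). Pfkfb3, which activates glycolysis through fructose 2,6-bisphosphate, was called higher at 0.92 and 0.97 at 4 hr and lower at −1.42 and −1.25 at 24 hr.

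Tigar, a phosphatase that lowers fructose 2,6-bisphosphate and so favours the pentose phosphate pathway, was at 0.18 and 0.49 at 4 hr and at 0.54 with KBrO3 alone at 24 hr, none of them called. With co-exposure at 24 hr Tigar was called higher at 1.22 (limma adjusted p 1.06e-07), 0.69 above KBrO3 alone, and after 24 hr of BPA alone it was called at 0.92 (adjusted p 0.0312). In the comparison of co-exposure with KBrO3 alone 1 gene of this list was called higher at 4 hr and 4 at 24 hr, against 10.7% and 6.59% of all genes.

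The 3 members whose group means spanned the widest range in the first set were Pgd (2.85 log2 units), Idh1 (1.93) and Pgls (1.14). The genes with the most similar profile over the 15 arrays were Rassf8, Rsbn1 and Plekhm2 for Pgd, with Pearson's r of 0.997, 0.996 and 0.995. Over the 9 arrays of the second set the same 3 had r of −0.11, −0.06 and 0.64. For Idh1 they were Casp12 (0.980, and 0.59 in the second set), Ramp2 (0.979 and 0.05) and Ankrd29 (0.978 and 0.49). For Pgls they were Wbp2 (0.981 and 0.85), Nosip (0.981 and 0.94) and Tm7sf3 (0.981 and 0.75). The arrays fall into 5 groups in the first set, so these values mostly describe likeness between group means, and they were chosen as the highest of all genes.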

How the data were processed

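Total RNA of 24 cultures was labelled with Cy3 and hybridized to Agilent mouse arrays, 1 sample each. The authors deposited spot intensity values from Agilent Feature Extraction (version 9.5.3.1 for the first set and 12.0.0.7 for the second, per the file headers; 12.0 in the submitters' processing notes), detrended and background-corrected but not normalized between arrays. Here the log2 of the processed signal minus each array's 75th percentile over non-control spots was used, outlier spots were left out and spots of a probe averaged. Probes were assigned to RefSeq genes of GRCm38.p6, 28586 by accession, of 33667 with a gene. A probe entered a fit when the software flagged it as well above background on all 3 arrays of some group (27333 probes in the first set, 31825 in the second). Groups came from the sample labels.

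Each set was fitted over all its groups with limma 3.58.1 (lmFit and eBayes, two-sided) in R 4.3.3, and effects were compared between sets in 1 fit of 24 arrays. The fit was tested on simulated data. The members and the lists were chosen with earlier results of these data known. All members are reported by their brightest probe over 24 arrays, and from each list up to 4 genes with the largest difference among those called against untreated, with H6pd, Idh2, Nadk and Tigar added (Me2 was added after its values were seen), and the 3 genes most correlated with each of the 3 members of widest range. Alternatives covered normalization, background correction, filters, weights, slide and replicate blocks, thresholds, the choice of probe, and leaving out each array. The number of arrays limits the precision. The values in the table deposited with the series equal the scanner's in 1041096 of 1041096 cases. Replicate numbers did not pair samples.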

Additional observations from a re-analysis of the deposited data

Results flagged for a closer look

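The difference between co-exposed cells and cells given KBrO3 alone changed from 4 to 24 hr for 3 of the 8 genes, by a direct limma test of that change over the first set. For Pgls the change was 1.03 ± 0.12 (SE, adjusted p 2.87e-05), and the difference went from −0.48 at 4 hr to 0.55 at 24 hr. For Taldo1 the change was 0.87 ± 0.077 (adjusted p 4.58e-06), from −0.48 to 0.39. For Idh1 it was 0.92 ± 0.15 (adjusted p 3.40e-04), from −0.70 to 0.22. With normexp background correction Taldo1 (adjusted p 0.0539) and Idh1 (adjusted p 0.233) were not called, in 1 fit of 24 arrays Idh1 was not (adjusted p 0.0754), and at the Bonferroni limit Pgls and Idh1 were not. These changes were called for 26.7% of all genes tested. The 4 hr groups compared lay on different slides, and at 24 hr 2 arrays of each group shared 1 slide, so slide and treatment cannot be told apart at 4 hr.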

How the results depend on the processing

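Of 24 calls of a member, quantile normalization kept 21, median scaling 22, normexp background correction 19 (on the median raw signal in the second set), 1 fit of 24 arrays 23, the mean of all probes 23 and the Bonferroni limit of 0.01 18, which lost Idh1 in 4 comparisons and Pgls in 2. The deposited table, no filter on dim probes, a filter on every array, outlier spots kept, only the groups compared, error weights and slide as a random block kept all 24, and a fixed slide block kept 8 of the 9 it could estimate. With the replicate block all 24 were kept and 0 gained, so it changed no call. The numbers only name samples, since the mean r between residuals was −0.03 and 0.0020 in the 2 sets for equal numbers, against 0.02 and 0.0011 for unequal ones, and 1 of 15 and 5 of 9 arrays were closest to their own number. Quantile normalization lost 3 calls, all of Tkt and all through the fold limit. For KBrO3 at 4 hr Tkt then had 0.27 instead of 0.67. At 24 against 4 hr Tkt had −0.20 instead of −0.85 with KBrO3 alone and −0.27 instead of −0.61 with co-exposure. Under median scaling Tkt had −0.15 for co-exposure at 24 against 4 hr, where Me1 had −0.29. With the mean of all probes the Me1 value for KBrO3 at 24 against 4 hr was −0.52, no longer called. Under normexp the Pgls value for co-exposure at 4 hr was −0.55, the Idh1 value between co-exposure and KBrO3 at 4 hr was −0.42 (adjusted p 0.285), the Tkt value for co-exposure at 24 against 4 hr was −0.55 (adjusted p 0.0215), and the changes from 4 to 24 hr were 0.83 for Taldo1 (adjusted p 0.0539) and 0.67 for Idh1 (adjusted p 0.233), none of them called. In 1 fit of 24 arrays that change for Idh1 had an adjusted p of 0.0754. With the mean of all tested probes, Rpe had −0.69 with KBrO3 alone at 4 hr (adjusted p 8.32e-08) where the brightest probe had 0.00, and the change of Tkt from 4 to 24 hr was −0.69 (adjusted p 0.0336) where it had 0.24. The other probes of these genes set both values. The dimmest Tkt probe had entered the fit only through co-exposure at 4 hr. With KBrO3 at 4 and 24 hr and co-exposure at 24 hr it was well above background on 0, 1 and 0 of 3 arrays. No reversal is read from the Tkt value.

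The number of members called moved by more than 1.5 times in these cases. For KBrO3 at 24 hr, 1 became 2 (Pgd added) with quantile normalization, median scaling and normexp, and 5 with no fold limit. Over all 14335 genes tested 4835 calls became 4959, 5067 and 6992 in these settings, and 69.2% of genes were called with no fold limit. For co-exposure at 24 hr, 3 became 5 (G6pdx and Pgls added) with median scaling and normexp, and 6 with no fold limit. Over all genes 5672 became 6557 and 7415, and 72.3% were called with no fold limit. For co-exposure at 4 hr, 3 became 6 with no fold limit and 5 with the mean of all probes. With no fold limit 80.4% of all genes were called. For co-exposure against KBrO3 at 4 hr, 1 became 3 with median scaling, 0 with normexp and with Bonferroni, and 7 with no fold limit. Over all genes 2835 became 3297 with median scaling and 1073 with normexp. Called at the Bonferroni limit were 5.99%, and with no fold limit 60.9%. For co-exposure against KBrO3 at 24 hr, 0 became 3 with median scaling and 5 with no fold limit. It became 1 with slide as a random or a fixed block (Pgls, at 0.60 and 0.65). Over all genes 2045 became 2494 with median scaling, and 50.4% were called with no fold limit. For the change between the times, 3 became 1 with normexp and with Bonferroni, and 5 with no fold limit. In 1 fit of 24 arrays (pooled spread) BPA alone called 2 at 4 hr (Rpe, adjusted p 0.00514, and Idh1, 0.00276). It called 1 at 24 hr (Idh1, 0.0268) and 1 between 24 and 4 hr (Rpe, −0.68, 0.0404). For BPA alone against added BPA at 24 hr, 0 became 1 (Idh1) with slide as a random block (−1.22, adjusted p 0.00744) or a fixed block (−1.44, 8.52e-04). Apart from the fits named with their construction, the cause was not tested.

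With 1 array left out, 358 of 360 calls held, those of Taldo1 and Tkt named above being the exceptions. The count for co-exposure against KBrO3 at 24 hr ranged from 0 to 1, with G6pdx at 0.59 without co-exposed replicate 1 and Pgls at 0.67 without co-exposed replicate 3. That for BPA alone against added BPA at 24 hr ranged from 0 to 1, with Idh1 at −1.30 without untreated replicate 1 or BPA replicate 3 of the second set. Median scaling moved the median of all genes by up to 0.46. It moved the share of calls that were higher from 37.2% to 52.9% (KBrO3, 24 hr), from 39.2% to 65.5% (co-exposure, 24 hr), from 54.2% to 33.6% and from 46.2% to 71.7% (co-exposure against KBrO3, 4 and 24 hr), and from 40.2% to 50.3% and from 40.5% to 64% (24 against 4 hr, KBrO3 and co-exposure). Quantile normalization moved the last 2 to 52.8% and 52.1%. Normexp gave 40.8% in place of 51.4% (co-exposure, 4 hr), 25.6% (KBrO3, 24 hr), 41% (co-exposure against KBrO3, 4 hr) and 100% in place of 64.3% (BPA, 4 hr), where it left 15 calls in place of 751, and it left 0 in place of 687 for BPA at 24 hr and 0 in place of 684 for BPA at 24 against 4 hr. No called member changed sign under a scaling.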
